A study of Mus musculus with 20 samples.

Results

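Aminoacyl-tRNA synthetases were examined as 36 genes, 20 coding for the cytosolic enzymes and 16 for the mitochondrial ones, of 32016 genes on the array and 18739 that were tested. Members were taken by the RefSeq gene to which a probe's accession belongs, and 36 of 36 were on the array and measured. The symbol Mars of the cytosolic methionine enzyme is now Mars1. The cells were a murine line labelled B16 Bcr-Abl+, a melanoma line carrying the Bcr-Abl oncogene, grown in DMEM with 10% FCS. They had been transfected with plasmids for p65/RelA, the transactivating subunit of NF-kappaB, and the labels give the strain as mouse C3H eOuJ for every sample. Cy3-labelled RNA of 6 groups was hybridised to 1-colour Agilent arrays. The void group received an empty plasmid, WT the wild-type RelA, and D361E a form that cannot be cleaved at that site. The N-fragment group received residues 1-361, the C-fragment group residues 362-549, and the N+C group both fragments. N+C had 5 arrays and each other group had 3. The labels state neither the promoter nor the vector, nor whether samples of a group came from separate cultures, so p-values reflect the spread among these samples alone, which may be technical.

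An aminoacyl-tRNA synthetase joins an amino acid to its matching tRNA, and the cell needs such an enzyme for each amino acid in the cytosol and again inside mitochondria, where a separate set of nuclear genes mostly supplies them. Several cytosolic enzymes sit in a multi-tRNA synthetase complex held together by the scaffold proteins coded by Aimp1, Aimp2 and Eef1e1. The transcription factor ATF4, made when the kinases of eIF2alpha sense amino acid shortage or stress, is known to raise many cytosolic synthetase genes along with genes of amino acid synthesis and transport. The cytosolic genes were therefore read as 13 that are widely described as ATF4 targets (Aars, Cars, Eprs, Gars, Iars, Lars, Mars1, Nars, Sars, Tars, Vars, Wars, Yars) and 7 others (Dars, Farsa, Farsb, Hars, Kars, Qars, Rars). Gars and Kars also supply the mitochondrial enzyme, and they were counted with the cytosolic genes.

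Promoter sequences are shown because ATF4 with its C/EBP partners binds a composite element whose core can be written TGATGNAA. That core was searched on both strands of the RefSeq promoter windows of assembly GRCm38.p6. These run from 250 bases before to 50 after an annotated start of a gene, which need not be the gene's first base. It was found in 3.97% of all 32851 promoters. It was found in 5 of the 13 cytosolic synthetase promoters in the table (38.5%) and in 0 of the 15 mitochondrial ones. The 5 genes were Aars, Gars, Iars, Tars and Yars, and all 5 belong to the ATF4-target list, of which 8 members had a promoter in the table. Mars1, Sars and Eprs were the other 3 of those 8, and these letters are not in their windows. In the sequences that follow, written 5′ to 3′ on the gene's strand, capitals mark the matched core, which shows as its reverse complement where the match lies on the opposite strand.
Aars: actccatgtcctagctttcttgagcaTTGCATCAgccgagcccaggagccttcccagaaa
Gars: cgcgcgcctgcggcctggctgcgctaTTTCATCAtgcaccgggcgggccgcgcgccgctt
Iars: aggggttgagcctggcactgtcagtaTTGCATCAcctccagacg
Tars: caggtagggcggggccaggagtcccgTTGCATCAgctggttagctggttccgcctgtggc
Yars: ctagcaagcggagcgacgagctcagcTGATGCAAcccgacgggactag
These windows lie at chr8:111033704-111033763 on the plus strand for Aars, chr6:55037945-55038004 on the plus strand for Gars, and chr13:49682111-49682154 on the plus strand for Iars. Those of Tars and Yars lie at chr15:11399640-11399699 on the minus strand and at chr4:129189880-129189927 on the plus strand. The Aars and Yars genes begin further upstream, at chr8:111027778 and chr4:129189734, so the starts used for them lie inside the gene. The Aars promoter held a second match, 13 bases past its annotated start. A match is a description of the sequence and no binding was measured. RefSeq entries for Cars, Hars, Hars2, Lars, Nars, Pars2, Rars, Vars and Wars were not in the table.

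Levels are given as log2 of the processed signal minus the array's 75th percentile, so that 0 is the 75th percentile of the array's probes. Differences between groups are log2 differences with their standard error (SE) from a limma fit on all 20 arrays. A gene is called changed at an adjusted p under 0.05 after Benjamini-Hochberg adjustment over all 18739 genes. Per array, 51.1% to 57.9% of the spots were well above background. Of the members, 35 were well above background on all 20 arrays. Nars2, the mitochondrial asparagine enzyme, was above it on 3 arrays (1 each of WT, D361E and N+C), so it has only a bound and no difference is given for it. Of the melanocyte markers 8 of 8 were above background on all arrays, as were Cd3e and Itgam of the haematopoietic markers, 2 of 4 macrophage markers (Csf1r and Cd68), 0 of 4 fibroblast markers and 0 of 4 epithelial markers. Ptprc, Cd79a and Spi1 of the haematopoietic list were above background on no array, and Pdgfra and Col1a1 of the fibroblast list were above it on 17 and 18 arrays. On the void arrays the Rela probe read 4.14, 4.17 and 4.19, and on the WT arrays 4.23, 4.25 and 4.25. That difference of 0.07 ± 0.07 (SE) was not called (limma adjusted p = 0.571), and Rela was called higher than void only with the N-fragment, at 0.36 ± 0.07 (limma adjusted p = 0.00089). The position of the Rela probe relative to the constructs is not given in the sources used here, so it checks no label.

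Some arrays stand apart within their group. The 20 arrays lay on 5 slides of 4, and slide 2 held void array 3, D361E array 2, N-fragment array 1 and N+C array 5. Adding slide to the fit as a term gave an adjusted p under 0.05 for 27.1% of all genes, for 10 of 20 cytosolic and for 4 of 16 mitochondrial synthetase genes. The 5 N+C arrays also fell in sets. The median absolute log2 difference over genes was 0.11 to 0.13 between arrays 1, 2 and 3 and 0.13 between arrays 4 and 5, against 0.25 to 0.33 between the sets. Pairs of arrays within the other groups differed by 0.08 to 0.25. Values with slide as a block, and without either N+C set, are given beside calls that they change.

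With wild-type RelA, 4 cytosolic synthetase genes were called higher than with the void plasmid, all of them among the 13 of the ATF4-target list. Mars1, Nars, Iars and Tars, which load methionine, asparagine, isoleucine and threonine, rose by 0.31 to 0.47. No cytosolic gene was called lower. Hars2, the mitochondrial histidine enzyme, was the 1 mitochondrial gene called, and it was lower relative to the other genes of the array. On the table without scaling between arrays, where the median of all genes was 0.37, it stood at 0.085. With 5 of 36 members called in either direction, where 9.39% of all genes were called, the cytosolic count was 4 of 20 higher, where 3.22% of all genes were called higher, and the mitochondrial count 1 of 16 lower, where 6.16% were called lower. The median difference was 0.21 over the 20 cytosolic genes, -0.01 over the 16 mitochondrial genes and -0.03 over all genes. After normexp with quantile normalization these medians were 0.11, 0.045 and 0.0058, so the gap between the classes was smaller. It was 0.28 over the 13 genes of the ATF4-target list, with 11 of the 13 above 0, and -0.15 over the 7 other cytosolic genes, with 1 of the 7 above 0. With slide as a block these medians were 0.32 and 0.02, so the sign turned for the 7 others, of which none was called in either fit.

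**Figure D1:**
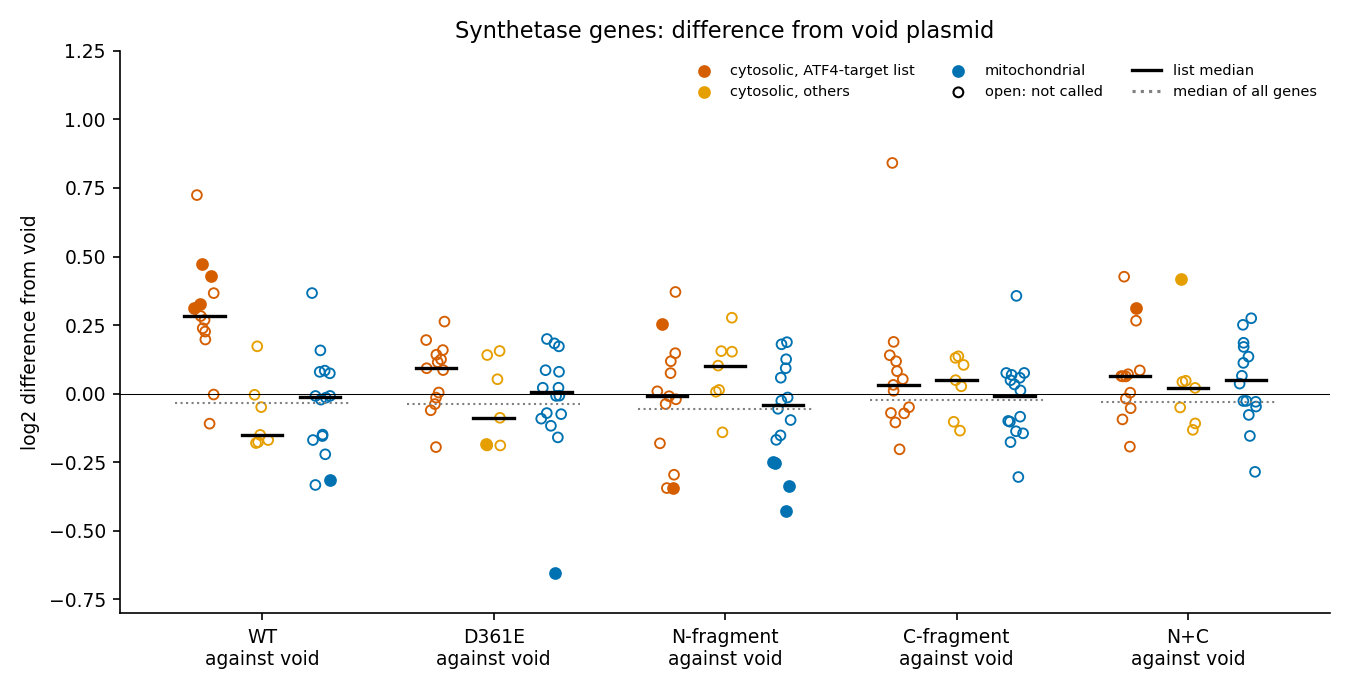
Log2 difference of each synthetase gene from void (y axis) for the 5 constructs (x axis), in the 13 cytosolic genes of the ATF4-target list, the 7 other cytosolic genes and the mitochondrial genes; filled points are called at an adjusted p under 0.05, open points are not, black bars are the medians of the lists and dotted lines the median of all genes. Nars2 is not drawn but counts in the mitochondrial median. The WT construct has 4 filled points above 0 in the ATF4-target list, and the N-fragment has 4 filled mitochondrial points below 0.

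Mars1 read 1.97, 1.98 and 1.97 on the void arrays and 2.42, 2.39 and 2.39 on the WT arrays. All 3 WT arrays lay above every other array of the study for this gene. The difference was 0.43 ± 0.05 (SE), or 1.35-fold (limma adjusted p = 5.95e-05), and on slide 3, which held 1 array of each group, it was 0.43. Nars read 2.47, 2.27 and 2.25 with void and 2.79, 2.85 and 2.77 with WT. The groups did not overlap, and the difference was 0.47 ± 0.10 (limma adjusted p = 0.00625) and 0.38 within slide 3. Iars read 3.51, 3.51 and 3.57 with void against 3.82, 3.78 and 3.97 with WT. That was a difference of 0.33 ± 0.06 (limma adjusted p = 0.00305), 0.27 within slide 3. The void and WT arrays were again separate, and the call was lost in a fit of these 2 groups alone.

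Tars read 3.31, 3.54 and 3.51 with void against 3.85, 3.76 and 3.68 with WT. Its difference of 0.31 ± 0.09 was close to the threshold (limma adjusted p = 0.0476), and it lost its call when any 1 of the 6 arrays was left out. With slide as a block it was 0.44 (limma adjusted p = 0.00138). Hars2 read 0.47, 0.46 and 0.59 with void and 0.19, 0.15 and 0.23 with WT. All WT arrays were lower, by 0.31 ± 0.08 (limma adjusted p = 0.0171), and the call was lost after normexp with quantile normalization (limma adjusted p = 0.0553) and without void array 3, WT array 1 or WT array 2.

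Slide as a block raised the WT count from 5 to 10 members, where 10.4% of all genes were then called. Aars, the alanine enzyme, read 4.27, 4.49 and 4.67 with void and 4.74, 4.73 and 4.76 with WT. The highest void value was that of slide 2, and the difference was 0.27 ± 0.15 without the block (limma adjusted p = 0.313) and 0.49 with it (limma adjusted p = 0.000418). Cars, the cysteine enzyme, read 4.08, 4.20 and 4.36 with void and 4.59, 4.57 and 4.57 with WT. Its difference went from 0.37 ± 0.14 (limma adjusted p = 0.133) to 0.54 with the block (limma adjusted p = 0.00292). Sars, the serine enzyme, went from 0.20 ± 0.12 (limma adjusted p = 0.378) to 0.34 (limma adjusted p = 0.0146). These 3 genes, like the 4 called without the block, are on the ATF4-target list. The mitochondrial genes Sars2 and Tars2 were called with the block too, at 0.29 and 0.22. Of the ATF4-target list, Gars and Vars were at 0.00 and -0.11 without the block, and neither was called in either fit.

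**Figure D2:**
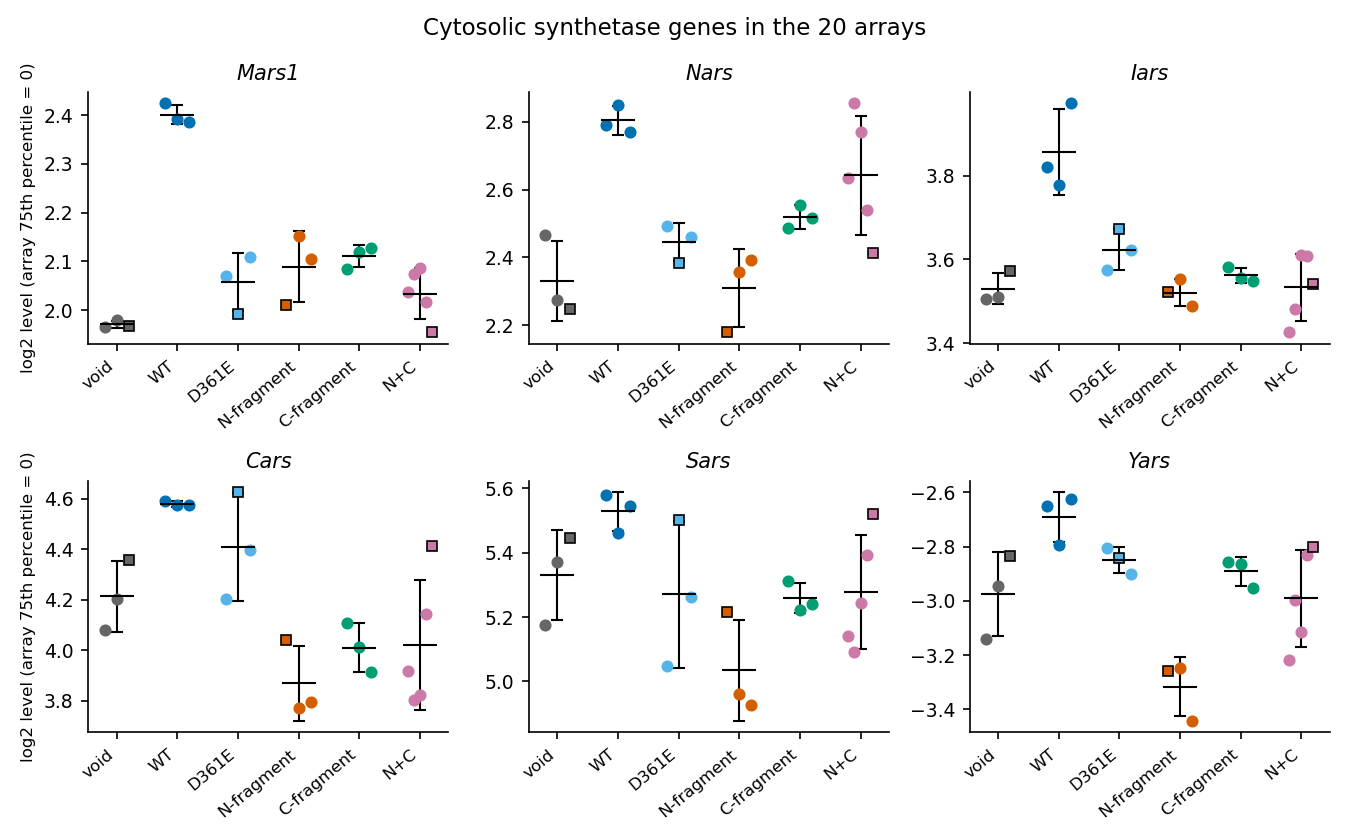
Level of 6 cytosolic synthetase genes (y axis, log2 of the signal relative to the array's 75th percentile, a separate range for each gene) in the 6 groups (x axis). Points are single arrays, squares with a black edge are the arrays of slide 2, and bars are the group mean with its SD. For Mars1 the 3 WT arrays lie at 2.39 to 2.42, above all others, and for Yars the N-fragment arrays lie at -3.44 to -3.25, below all others.

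The other constructs differed from void in few cytosolic synthetase genes. Against void, the share of all genes called in either direction was 13.5% with D361E, 31.1% with the N-fragment, 13.1% with the C-fragment and 24.6% in N+C, and 2, 6, 0 and 2 of the 36 members were called. D361E had 0 of 20 cytosolic genes called higher and 1 lower, where 6.04% and 7.44% of all genes were called higher and lower. The C-fragment had 0 of 36 members called in either direction, where 4.88% of all genes were called higher and 8.24% lower, and at an unadjusted p under 0.05 6 of the 36 passed (limma). The N-fragment had 1 of 20 higher and 1 lower, where 13.2% and 17.9% of all genes were called. N+C had 2 of 20 higher and none lower, where 11.8% and 12.8% were called. The medians over the 20 cytosolic genes were 0.07 for D361E, 0.01 for the N-fragment, 0.04 for the C-fragment and 0.05 for N+C, and the medians of all genes were between -0.06 and -0.02.

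Aars was called higher with D361E when slide was a block, at 0.29 (limma adjusted p = 0.00342) against 0.26 ± 0.15 without the block (limma adjusted p = 0.308).

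Dars, the aspartate enzyme of the multi-synthetase complex, was the cytosolic gene lower with D361E. It read -0.34, -0.27 and -0.32 with void and -0.53, -0.41 and -0.53 with D361E. The groups were separate, but the difference of -0.18 ± 0.06 was close to the threshold (limma adjusted p = 0.045) and was lost with slide as a block (limma adjusted p = 0.0767). It was also lost on leaving out any void array, D361E array 1 or D361E array 3. With the block, 1 cytosolic gene was still called lower with D361E, where 19.4% of all genes were called in either direction. That gene was Kars, of the same complex, at -0.17 and -0.19 within slides 2 and 5.

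Yars, the tyrosine enzyme, was lowest in the N-fragment group. It read -3.26, -3.25 and -3.44 there and -3.14, -2.95 and -2.84 with void, a difference of -0.34 ± 0.11 (limma adjusted p = 0.0205). The call was lost without void array 2 or 3 or N-fragment array 3, and under quantile normalization. Wars, the tryptophan enzyme, was higher with the N-fragment, at 5.13, 5.15 and 5.07 against 4.99, 4.78 and 4.82 with void. That difference of 0.25 ± 0.09 (limma adjusted p = 0.0435) was not called with slide as a block (limma adjusted p = 0.114). It was also lost without void array 2 or 3 or any N-fragment array. With the block, 9 members were called for the N-fragment against 6 without it, where 35.7% of all genes were called, and Cars and Sars were then lower, at -0.31 and -0.28, and Eprs and Tars higher, at 0.28 and 0.20.

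In N+C, Hars and Nars were called higher than void. Hars, the cytosolic histidine enzyme, read 1.36, 1.11, 1.41, 1.11 and 1.11 on N+C arrays 1 to 5 and 0.49, 0.90 and 1.02 with void. All N+C arrays were above all void arrays, by 0.42 ± 0.12 on average (limma adjusted p = 0.0224). Nars read 2.63, 2.85, 2.77, 2.54 and 2.41 in N+C, the lowest of which lay below void array 1 at 2.47. Its difference was 0.31 ± 0.09 (limma adjusted p = 0.0157). Without N+C arrays 1 to 3 the differences were 0.31 for Hars and 0.15 for Nars and neither was called. The Hars call was also lost without void array 1 or N+C array 3, and the Nars call without void array 2 or 3.

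Of the 16 mitochondrial synthetase genes, 4 were called lower and none higher with the N-fragment against void. This count is near the background, with 17.9% of all genes lower, and with slide as a block 3 were lower and 1, Tars2 at 0.15, was higher. The median was -0.04 over the 16 genes against -0.06 over all genes. Fars2, which loads phenylalanine, read 2.66, 2.66 and 2.69 with the N-fragment against 2.91, 2.88 and 2.96 with void. The difference was -0.25 ± 0.06 (limma adjusted p = 0.0056) and -0.30 within slide 2, the slide that held both groups. The N-fragment arrays were the lowest of the study for Fars2, and no single array's removal ended the call.

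Yars2, the mitochondrial tyrosine enzyme, read 1.32, 1.20 and 1.21 with the N-fragment and 1.47, 1.59 and 1.68 with void. The groups did not overlap, and the difference was -0.34 ± 0.09 (limma adjusted p = 0.00922). Lars2, the mitochondrial leucine enzyme, read 0.63, 0.66 and 0.60 against 0.86, 0.87 and 0.93. All 3 N-fragment arrays were the lowest of the 20, and the difference was -0.25 ± 0.07 (limma adjusted p = 0.0112). Wars2, the mitochondrial tryptophan enzyme, was the fourth, at -2.94, -3.06 and -3.06 against -2.51, -2.67 and -2.60. Its difference was -0.43 ± 0.13 (limma adjusted p = 0.0224). It was not called with slide as a block (limma adjusted p = 0.0616) nor without void array 1 or 3 or N-fragment array 2 or 3, and under quantile normalization it was -0.30 and not called. On the series table without scaling between arrays, where the median of all genes moved to 0.28, Fars2 and Lars2 stood at 0.09 and 0.08, so their direction is relative to the other genes of the array.

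Mars2, the mitochondrial methionine enzyme, was lower with D361E, at -2.95, -2.89 and -3.14 against -2.62, -2.00 and -2.41 with void. The groups were separate and the difference of -0.65 ± 0.15, or 1.57-fold lower (limma adjusted p = 0.00862), stayed called without any single array but not in a fit of these 2 groups alone. It was the 1 mitochondrial gene of 16 called against void with D361E, where 13.5% of all genes were called in either direction. Neither the C-fragment nor N+C had a mitochondrial gene called against void, where 13.1% and 24.6% of all genes were called. With slide as a block D361E had 3 members called in all, where 19.4% of all genes were called. N+C had 4 mitochondrial genes (Fars2 at -0.14 and Lars2, Sars2 and Tars2 at 0.18, 0.29 and 0.23), where 33.4% of all genes were called, and the C-fragment had 1 (Tars2, at 0.21), where 14.7% were called.

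**Figure D3:**
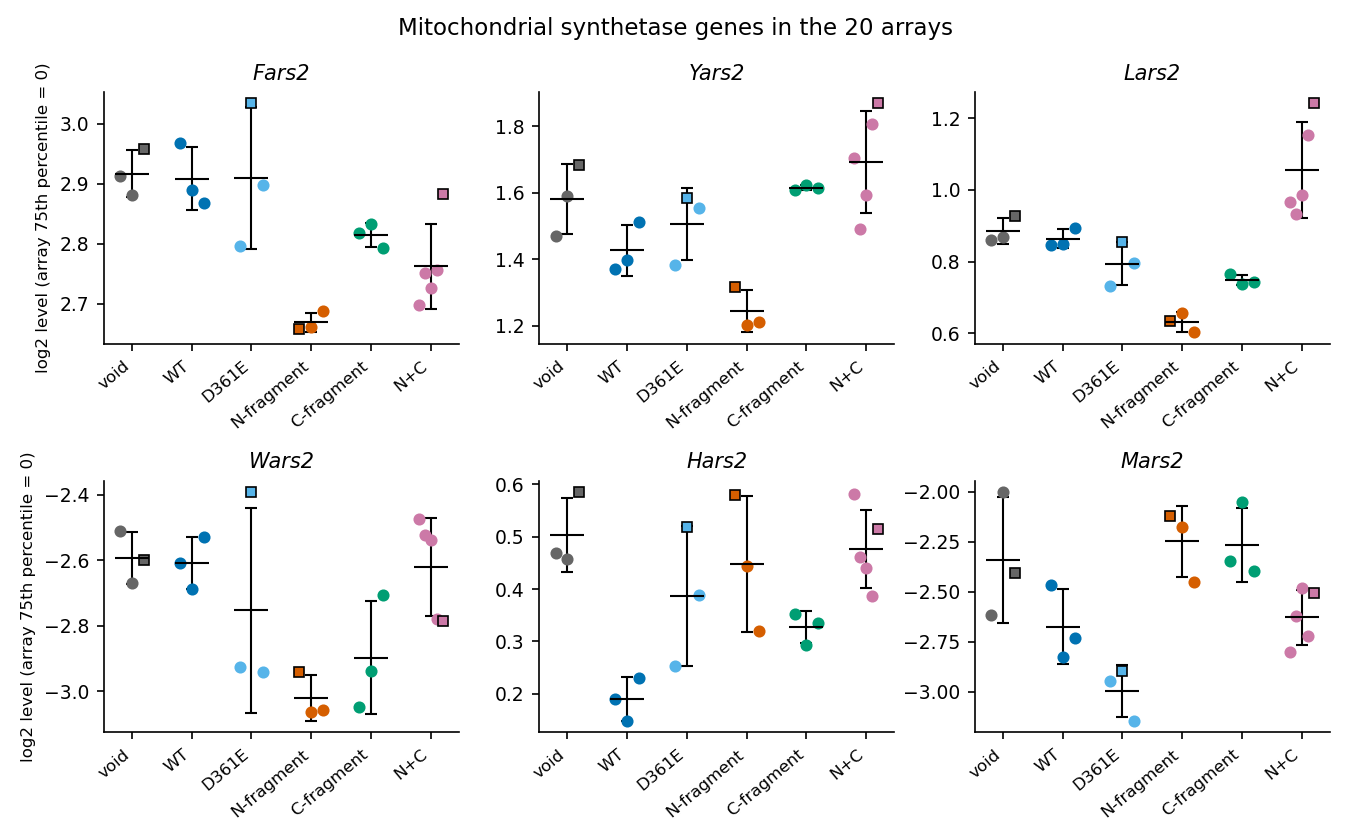
Level of 6 mitochondrial synthetase genes (y axis, log2 of the signal relative to the array's 75th percentile, a separate range for each gene) in the 6 groups (x axis). Points are single arrays, squares with a black edge are the arrays of slide 2, and bars are the group mean with its SD. For Lars2 the N-fragment arrays lie at 0.60 to 0.66, below all others, and for Hars2 the WT arrays lie at 0.15 to 0.23, also the lowest.

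Compared with wild-type RelA, each altered construct had cytosolic genes of the ATF4-target list called lower. These comparisons share the WT arrays with one another and with the comparison of WT with void, so they are not independent of each other. In either direction 3 members were called with D361E, 14 with the N-fragment, 3 with the C-fragment and 9 in N+C, where 4.21%, 27.3%, 4.44% and 23.3% of all genes were called. D361E had 2 of 20 cytosolic genes lower and none higher, where 1.79% and 2.42% of all genes were called lower and higher. The C-fragment had 3 lower and none higher, where 2.35% and 2.09% were called. The N-fragment had 7 lower and 2 higher, where 13.5% and 13.8% were called, and N+C had 5 lower and 1 higher, where 9.67% and 13.6% were called. Every cytosolic gene called lower in these 4 comparisons was on the ATF4-target list, and every one called higher was among the 7 others. Fitting slide as a block, this did not hold for N+C, where Rars, of the 7 others, was lower at -0.19 and Hars was no longer called. The medians over the ATF4-target list were -0.23 for D361E, -0.34 for the N-fragment, -0.26 for the C-fragment and -0.25 for N+C. Over the 7 other genes they were -0.01, 0.18, 0.11 and 0.13 (0.04 for N+C with the block), and over all genes between -0.03 and 0.02. With slide as a block the members called against WT were 5 for D361E, 16 for the N-fragment, 9 for the C-fragment and 12 for N+C, where 4.65%, 33.6%, 9.07% and 26.9% of all genes were called. Tars was then lower in all 4 comparisons, by -0.30, -0.23, -0.26 and -0.36 in that order.

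Mars1 and Iars were lower than WT in all 4 comparisons. Mars1 read 2.07, 1.99 and 2.11 with D361E, and its difference from WT was -0.34 ± 0.05 (limma adjusted p = 0.000596). It read 2.01, 2.15 and 2.11 with the N-fragment, a difference of -0.31 ± 0.05 (limma adjusted p = 0.000224). With the C-fragment it read 2.09, 2.12 and 2.13, a difference of -0.29 ± 0.05 (limma adjusted p = 0.00342). In N+C it read 2.04, 2.07, 2.09, 2.02 and 1.96, a difference of -0.37 ± 0.05 (limma adjusted p = 2.44e-05). No array of these 4 groups reached the lowest WT value of 2.39.

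Iars differed from WT by -0.23 ± 0.06 with D361E, where it read 3.57, 3.67 and 3.62 (limma adjusted p = 0.0402). With the N-fragment it read 3.52, 3.55 and 3.49, with the C-fragment 3.58, 3.56 and 3.55, and in N+C 3.43 to 3.61 with a median of 3.54. These differences were -0.34 ± 0.06, -0.29 ± 0.06 and -0.32 ± 0.05 (limma adjusted p = 0.000572, 0.0102 and 0.000439). All arrays of these groups lay below the lowest WT value, 3.78. The D361E call was lost without WT array 1 or 3 or any D361E array, and the C-fragment call without WT array 3, which was the highest.

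Cars was lower with the fragments. It read 4.04, 3.77 and 3.80 with the N-fragment against 4.59, 4.57 and 4.57 with WT, and its difference of -0.71 ± 0.14, or 1.64-fold lower, was the largest among the cytosolic genes there (limma adjusted p = 0.0015). With the C-fragment it read 4.11, 4.01 and 3.91, a difference of -0.57 ± 0.14 (limma adjusted p = 0.0347) that was lost when any 1 of the 6 arrays was left out. In N+C it read 3.92, 3.80, 3.82, 4.14 and 4.41, and the difference was -0.56 ± 0.13 (limma adjusted p = 0.00504). The last 2 values are those of arrays 4 and 5, and without arrays 1 to 3 the difference was -0.30 and not called. With D361E it read 4.20, 4.63 and 4.40, which overlapped WT through the array of slide 2. That difference was not called without the block, and was -0.36 and called with it.

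With the N-fragment, Yars, Nars and Sars were also lower than WT. Yars differed by -0.63 ± 0.11 (limma adjusted p = 0.000301), with WT arrays at -2.65, -2.80 and -2.62. Nars read 2.18, 2.36 and 2.39 with the N-fragment and differed by -0.49 ± 0.10 (limma adjusted p = 0.00116). Sars read 5.22, 4.96 and 4.93 against 5.58, 5.46 and 5.54, a difference of -0.49 ± 0.12 (limma adjusted p = 0.00708). None of these 3 genes overlapped between the groups, and all 3 calls stayed when any single array was left out. The seventh gene was Aars at -0.45 ± 0.15, which stayed separate too but lost its call without any 1 WT array, or N-fragment array 2 or 3.

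Among the cytosolic genes outside the ATF4-target list, Farsa, the catalytic subunit for phenylalanine, was higher with the N-fragment than with WT. It read 3.36, 3.24 and 3.21 against 2.90, 2.94 and 2.98, a difference of 0.33 ± 0.10 (limma adjusted p = 0.0166) that was lost without WT array 1 or N-fragment array 1. Dars, at -0.35, -0.29 and -0.24 against -0.51, -0.44 and -0.48, was higher by 0.18 ± 0.06 (limma adjusted p = 0.0251). This call was lost without WT array 1 or 3 or N-fragment array 2 or 3. Hars was higher in N+C than in WT, where it read 0.79, 0.71 and 0.90. The groups were separate and the difference was 0.42 ± 0.13 (limma adjusted p = 0.0223), but it was not called with slide as a block (limma adjusted p = 0.0511) nor without WT array 1 or 2 or N+C array 1 or 3. This Hars call was also lost without N+C arrays 1 to 3 together. Tars and Yars completed the N+C count, at -0.25 ± 0.08 and -0.30 ± 0.09. Both calls were lost without N+C arrays 1 to 3 and on removal of several single arrays, WT array 1 and N+C array 3 among them.

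The mitochondrial genes moved in both directions against WT. The N-fragment had 3 of 16 lower and 2 higher, N+C had 3 higher and none lower, D361E had 1 higher, and the C-fragment had none. For the N-fragment these counts stand beside 13.5% of all genes lower and 13.8% higher, and for N+C beside 13.6% higher. With slide as a block the N-fragment had 4 lower and 1 higher, and N+C had 1 lower and 2 higher. D361E then had none, and the C-fragment had 1 higher. In that order 33.6%, 26.9%, 4.65% and 9.07% of all genes were called in either direction with the block. Fars2, Lars2 and Wars2 were lower with the N-fragment, by -0.24 ± 0.06, -0.23 ± 0.07 and -0.41 ± 0.13, with WT arrays at 2.87 to 2.97, 0.85 to 0.89 and -2.69 to -2.53. Of the 3, Fars2 kept its call when any single array was left out.

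Hars2 was higher than WT in N+C, at 0.58, 0.46, 0.44, 0.39 and 0.51. That difference of 0.29 ± 0.07 (limma adjusted p = 0.00616) was the largest of the 3 mitochondrial ones in N+C and stayed called without any single array. With the N-fragment Hars2 read 0.58, 0.44 and 0.32, a difference of 0.26 ± 0.08 (limma adjusted p = 0.019), lost without WT array 1 or 2 or N-fragment array 1. Hars2 thus lay below every N-fragment, C-fragment, N+C, void and D361E array in the WT group, where its highest value was 0.23 and the lowest value elsewhere 0.25.

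Lars2 and Yars2 were higher in N+C than in WT by 0.19 ± 0.06 and 0.27 ± 0.08 (limma adjusted p = 0.0367 and 0.0254). Lars2 read 0.97, 0.93, 0.99, 1.15 and 1.24 in N+C, all above the highest WT array at 0.89. Yars2 read 1.70, 1.49, 1.59, 1.81 and 1.87 in N+C, where the lowest overlapped the highest WT array at 1.51. Both genes were highest on N+C arrays 4 and 5, and without these 2 arrays the differences were 0.10 and 0.17 and neither was called. The Lars2 call was also lost with slide as a block (limma adjusted p = 0.0886) and without any single WT array, N+C array 4 or N+C array 5, and the Yars2 call without WT array 1 or 2. Vars2, the mitochondrial valine enzyme, read -0.38, -0.23 and -0.29 with D361E against -0.64, -0.63 and -0.63 with WT. It was higher by 0.33 ± 0.08 (limma adjusted p = 0.025), and this call was lost with slide as a block and without any WT array, D361E array 2 or D361E array 3. Mars2 was higher with the N-fragment than with WT by 0.43 ± 0.15 (limma adjusted p = 0.0486), a call lost with slide as a block (limma adjusted p = 0.117) and without WT array 2 or 3 or N-fragment array 1 or 2.

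The N-fragment and the C-fragment were compared directly. The 2 tyrosine enzymes were the members called, Yars in the cytosol and Yars2 in mitochondria, and both were lower with the N-fragment, where 20.2% of all genes were called, and 10.2% were called lower. Yars differed by -0.42 ± 0.11, with C-fragment arrays at -2.86, -2.87 and -2.95 (limma adjusted p = 0.00857). Yars2 differed by -0.37 ± 0.09, with C-fragment arrays at 1.61, 1.62 and 1.61 (limma adjusted p = 0.0076). The fragments did not overlap for either gene, and both differences held their calls without any single array. Under quantile normalization the Yars difference was -0.38 and not called, and after normexp neither gene was called. Within slides 1 and 4 the difference was -0.58 and -0.39 for Yars and -0.41 and -0.41 for Yars2. With slide as a block the count rose to 7, where 24.9% of all genes were called, and Aars, Cars, Sars, Cars2 and Fars2 were then lower as well. Without the block, the Cars2 probe used differed by -0.24 and the second Cars2 probe by -0.01.

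**Figure D4:**
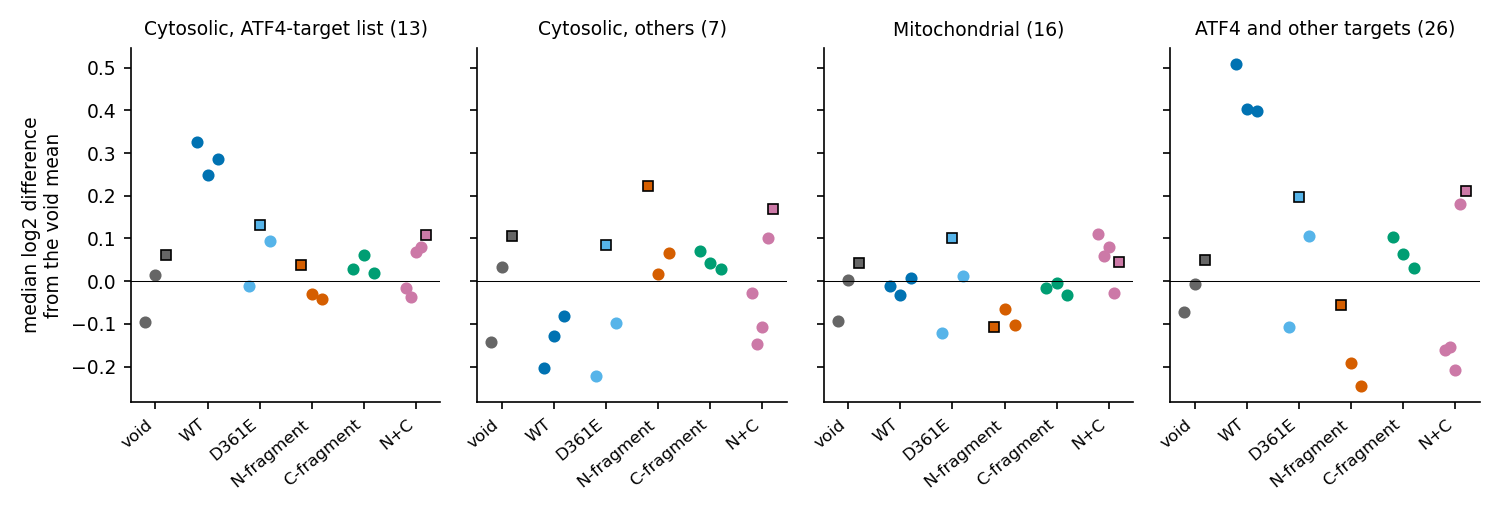
Median log2 difference from the void mean over each gene list (y axis, same range in the 4 panels) for every array, by group (x axis); squares with a black edge are arrays of slide 2. The WT arrays lie at 0.25 to 0.33 for the 13 cytosolic genes of the ATF4-target list and at -0.03 to 0.01 for the 16 mitochondrial genes.

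Array by array, the median over the 13 cytosolic genes of the ATF4-target list, taken relative to each gene's void mean, was 0.33, 0.25 and 0.29 on the WT arrays. On the arrays of the other groups it lay between -0.10 and 0.13. The median over the 16 mitochondrial genes was -0.01, -0.03 and 0.01 on the WT arrays and between -0.12 and 0.11 elsewhere. The WT arrays stood apart from the others in the first list and lay among them in the second. In N+C, arrays 4 and 5 read 0.08 and 0.11 in the ATF4-target list and arrays 1 to 3 read -0.02, -0.04 and 0.07. For the 7 other cytosolic genes, arrays 4 and 5 read 0.10 and 0.17 and arrays 1 to 3 read -0.03, -0.15 and -0.11. The sets were separate in both lists. For Atf4 and its 26-gene list, arrays 4 and 5 read 0.18 and 0.21 and arrays 1 to 3 read -0.16, -0.15 and -0.21. They were separate as well for the mitochondrial genes (-0.03 and 0.05 against 0.11, 0.06 and 0.08) and for all genes (-0.05 and -0.04 against -0.03, 0.01 and -0.02).

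The same lists were split by enzyme structure and by complex. Class I and class II enzymes have unrelated catalytic folds. With WT against void, where 3.22% of all genes were called higher and 6.16% lower, 2 of 19 class I genes were higher and none lower, and of 17 class II genes 2 were higher and 1 lower. The slide block gave 3 class I and 6 class II genes higher and 1 class II gene lower. With the N-fragment against void, where 13.2% and 17.9% of all genes were called, 1 class I gene was higher and 4 were lower, and in class II none was higher and 1 was lower, counts near or below the background. Of the 8 enzymes of the multi-synthetase complex, Iars and Mars1 were called with WT against void, with the block and without it.

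Eprs, which codes for the joined glutamate and proline enzyme, had the widest spread of the cytosolic genes between slides. It read -0.27 on void array 3, -0.12 on D361E array 2, 0.10 on N-fragment array 1 and 0.14 on N+C array 5, the 4 arrays of slide 2. On all other arrays it lay between 0.55 and 1.45. The slide 2 arrays were thus below all others whatever the construct, and the mean deviation from the group mean there was -0.77 (limma adjusted p of the slide term = 3.21e-08). Without the block the C-fragment differed from void by 0.84 ± 0.42 and was not called (limma adjusted p = 0.216). With the block the difference was 0.30 ± 0.06 and was called (limma adjusted p = 0.00959), and those of the N-fragment and N+C, 0.28 and 0.33, were called too.

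Tars2, the mitochondrial threonine enzyme, was also low on slide 2, by 0.18 below the group means, while Vars, Cars, Qars and Aars were high there, by 0.27, 0.23, 0.22 and 0.22. Vars read 2.93, 2.69, 3.09 and 2.97 on the slide 2 arrays of void, D361E, N-fragment and N+C, each the highest of its group. Mars1 and Iars, called against WT in all 4 comparisons, had no called slide term (limma adjusted p = 0.286 and 0.288).

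**Figure D5:**
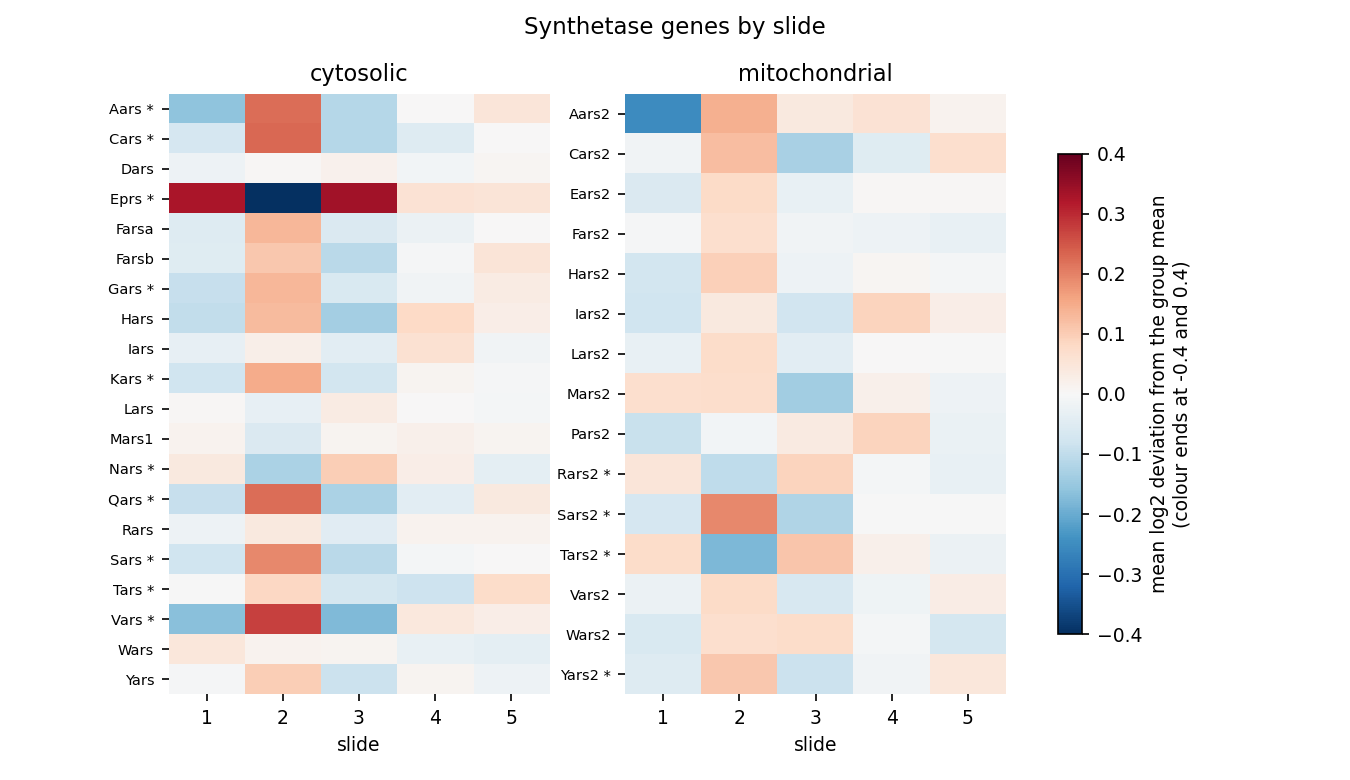
Mean log2 deviation of each synthetase gene from its group mean on each of the 5 slides (x axis), cytosolic genes left and mitochondrial genes right, with red above and blue below the group mean; a star marks genes whose slide term is called, and Nars2 is not drawn. Slide 2 holds the lowest value of Eprs, -0.77, which lies past the end of the colour scale.

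Within N+C, Lars, the cytosolic leucine enzyme, differed between the 2 sets of arrays. It read 3.25, 3.15 and 3.17 on arrays 1 to 3 and 2.68 and 2.74 on arrays 4 and 5, where the void arrays read 2.73, 2.76 and 2.72. Arrays 4 and 5 thus lay near the void values and arrays 1 to 3 above every other array of the study. The difference of the 5 arrays from void was 0.27 ± 0.11 and was not called (limma adjusted p = 0.0956). Qars, the glutamine enzyme, ran the other way, at 4.06, 3.92 and 3.97 on arrays 1 to 3 and 4.46 and 4.56 on arrays 4 and 5. Cars2 read 0.79, 0.68 and 0.64 against 1.19 and 1.15, and Farsb, the second phenylalanine subunit, 2.77, 2.68 and 2.78 against 3.20 and 3.18. The sets did not overlap for these genes, which were named after their values were seen, so this is not a result about them. Other members, Aars and Sars among them, also had separate sets, and the share over all genes was not counted. Without arrays 4 and 5, 7 members were called against void and 13 against WT. Without arrays 1 to 3, 3 were called against void and 9 against WT. Over all 5 arrays the counts were 2 and 9, where 24.6% and 23.3% of all genes were called. The shares of all genes in the smaller fits are not given here. Their counts were therefore not read as a result about the members.

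Some single arrays and probes stood out. WT array 1 read -0.33 for Aars2 and -0.07 for Pars2, where the other WT arrays read 0.74 and 0.69, and 0.36 and 0.36. Neither gene was called in any comparison with WT. Of the members, 8 had a second measured probe, and the sign of the difference was unlike between the probes of a gene in 1 to 4 of the 10 comparisons, most often for Wars, in 4. The brightest probe was used for each.

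Genes that work with the synthetases were read as lists of their own. Of 12 other aminoacylation and tRNA genes, none was called with WT or D361E against void, 3 were higher and 1 lower with the N-fragment (all genes 13.2% and 17.9%), 1 was lower with the C-fragment (8.24%) and 1 was higher in N+C (11.8%). The slide block gave 4 higher and 1 lower in N+C, and 3 higher and 3 lower with the N-fragment. Eef1e1, a scaffold of the multi-synthetase complex, read 2.45 to 2.55 with the N-fragment and 2.06 to 2.21 with void, a difference of 0.38 ± 0.07 (limma adjusted p = 0.000437). In N+C it was higher by 0.28 ± 0.06 (limma adjusted p = 0.00253). Aimp1, another scaffold, read 4.10 to 4.17 with the N-fragment and 3.89 to 3.91 with void, a difference of 0.24 ± 0.04 (limma adjusted p = 0.000698). Neither gene's groups overlapped. Gatb, a subunit of the mitochondrial enzyme that makes glutaminyl-tRNA, was lower by -0.30 ± 0.09 with the N-fragment and by -0.37 ± 0.09 with the C-fragment (limma adjusted p = 0.0205 and 0.0146).

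Atf4 and its targets outside the synthetases, 26 genes in all, were read as the other genes of the pathway. With WT against void 13 of the 26 were higher and 1 was lower, where 3.22% and 6.16% of all genes were called higher and lower, and the median was 0.41. Atf4 itself read 7.11, 7.16 and 7.34 with WT and 6.54, 6.64 and 6.77 with void, and was higher by 0.56 ± 0.11 (limma adjusted p = 0.00426). Nupr1, a stress-response regulator, and Chac1, a glutathione-degrading enzyme, rose by 1.83 ± 0.45 and 1.74 ± 0.22. Ddit4, an inhibitor of mTORC1 signalling, was the gene that fell, by 1.41 ± 0.09 on the log2 scale. Against WT, 13 of the 26 were lower with D361E, 15 with the N-fragment, 12 with the C-fragment and 15 in N+C, where 1.79%, 13.5%, 2.35% and 9.67% of all genes were called lower, while 0, 2, 0 and 2 were higher. Against void, the other 4 constructs had called genes in both directions, 6 higher and 5 lower with D361E, 4 and 7 with the N-fragment, 3 and 3 with the C-fragment and 3 and 5 in N+C. The shares of all genes called higher and lower were 6.04% and 7.44%, 13.2% and 17.9%, 4.88% and 8.24%, and 11.8% and 12.8% in that order.

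Among 7 genes of eIF2alpha, its kinases and its phosphatase, Eif2ak3, which codes for the kinase PERK, was higher with WT than with void by 0.45 ± 0.07 (limma adjusted p = 0.00125) and with D361E by 0.57 ± 0.07 (limma adjusted p = 7.45e-05). It was the 1 gene of the list called with either construct, where 3.22% and 6.04% of all genes were called higher. In N+C it was 1 of 3 genes called lower, by -0.24 ± 0.07 (limma adjusted p = 0.0139), and 1 gene was called higher (all genes 12.8% and 11.8%). Eif2ak2, another of the kinases, read 0.15 with void and -0.40 in N+C on average, the largest fall of the list. With the N-fragment 2 genes were called higher and 2 lower (all genes 13.2% and 17.9%). Ppp1r15a, the stress-induced phosphatase subunit, was higher by 0.66 ± 0.11 and Ppp1r15b lower by -0.33 ± 0.07. The other higher gene was Eif2s1, which codes for eIF2alpha itself, at 4.85 against 4.25 with void on average. Of 9 genes of mitochondrial translation, none was called higher than void with any construct. None was lower with WT, 1 with D361E, 2 with the N-fragment, 1 with the C-fragment and 2 in N+C. The shares of all genes called lower were 6.16%, 7.44%, 17.9%, 8.24% and 12.8% in that order. Mrrf, the ribosome recycling factor, was lower by -0.51 ± 0.08 with the N-fragment and by -0.51 ± 0.07 in N+C. Of 5 cytosolic elongation factor genes, Eef1d was higher with the N-fragment, the C-fragment and N+C, by 0.17, 0.19 and 0.15. The shares of all genes called higher were 13.2%, 4.88% and 11.8% in that order.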

How the data were processed

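The authors deposited scanner files of 20 arrays, which per the file headers came from Agilent Feature Extraction 10.7.3.1, with intensity values as background-subtracted processed signals. The deposited series table equals these signals on all 44397 features, which were thus not scaled between arrays. The title "Blanck" was taken to mean the void plasmid. Here, control and outlier-flagged spots were left out, signals were put on the log2 scale and each array's 75th percentile, which varied up to 1.45-fold, was subtracted. Probes were named through RefSeq accessions (72.7% of 39429), kept when well above background on at least 3 arrays, and the brightest was taken per gene. limma 3.58.1 in R 4.3.3 fitted 18739 genes over 6 groups and 20 arrays (two-sided moderated tests, Benjamini-Hochberg), with 14 residual degrees of freedom, and the script was tested on simulated data. No synthetase list was tested as a set. Members, lists and the rule for named genes (the largest called differences in each class, Rela, and up to 2 called genes per direction of each related list) were chosen with earlier results of these data known. The members of the N+C sets were named after their values were seen. Alternatives were 3 other scalings, 2 other filters, the mean of probes, smaller fits, moderation with a trend, slide as a block and leaving out arrays. The planned mean signal is not in the files, and normexp used the median signal.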

Additional observations from a re-analysis of the deposited data

Results flagged for a closer look

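Ears2, which codes for the mitochondrial glutamate enzyme, read -0.89 on N+C array 4. The other 4 arrays of that group lay between -0.72 and -0.69. The gap to the nearest of them took up 0.829 of the group's whole range, above the critical value of 0.71 for 5 samples. The 36 members were examined in this way in N+C, the 1 group with more than 3 arrays, and chance alone gives about 1 such case in 20 groups. Ears2 was well above background on all 5 arrays and was called in no comparison.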

How the results depend on the processing

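No paired analysis was possible because sample names hold no replicate number shared between groups, so arrays could be matched across groups by slide alone, as in the block given here. Of 46 called differences, 12 kept their call under every alternative examined gene by gene and 22 under every removal of a single array. The fit without slide 2 was not examined gene by gene. The 3 that reversed did so without scaling between arrays: Hars2 with WT against void at 0.085, and Fars2 and Lars2 with the N-fragment against void at 0.086 and 0.080. Members called went from 5 to 24 with WT, 2 to 4 with D361E, 6 to 17 with the N-fragment, 0 to 8 with the C-fragment and 2 to 14 with N+C against void on that unscaled table. Against WT the unscaled table gave 8 for D361E and 7 for the C-fragment in place of 3 each, and 0 in place of 2 between the fragments. For these comparisons 130, 74 and 2188 of all genes were called higher there, and 1273, 866 and 927 lower. There the median of all genes with WT against void was 0.37, and 96.7% of its called genes were higher, against 34.3% with the percentile scaling and 45.9% under quantile normalization. In the order WT, D361E, N-fragment, C-fragment, N+C against void, slide as a block gave 10, 3, 9, 2 and 7. It gave 5 for D361E against WT, 9 for the C-fragment against WT and 7 between the fragments. Normexp with quantile normalization gave 1 for D361E and 5 for N+C against void and 0 between the fragments, where quantile normalization alone gave 1. Fitting only the groups compared gave 3 with WT, 0 with D361E and 0 with N+C against void, and 8 for the C-fragment and 5 for N+C against WT. Testing all probes gave 3 with WT and 1 with D361E against void, and 1, 8 and 5 for D361E, the N-fragment and N+C against WT. Requiring signal on all arrays gave 1 with the C-fragment and 4 with N+C against void. The mean of a gene's probes gave 1 with the C-fragment, and moderation with a trend gave 1 with the C-fragment and 1 with D361E. Among settings added after seeing the data, N+C against void gave 7 without N+C arrays 4 and 5 and 4 without slide 2, and D361E against WT gave 1 without slide 2. Leaving out single arrays gave 3 to 6 with WT, 1 to 2 with D361E, 3 to 7 with the N-fragment, 0 to 2 with the C-fragment and 1 to 5 with N+C against void. It gave 1 to 2 for D361E, 9 to 11 for the N-fragment, 1 to 2 for the C-fragment and 4 to 10 for N+C against WT, and 2 to 3 between the fragments. The lowest counts came without N-fragment array 3 (3) against void and without WT array 1 (4) for N+C against WT. Counts given without the share of all genes were not read as a result about the synthetase genes. The causes were not tested. With 3 to 5 arrays a group, the number of arrays limits the precision.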
